A study of Homo sapiens with 12 samples.

Results

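Serum-starved HEK293T cells that carried a TRPML3 plasmid were compared with starved cells that carried the control vector. HEK293T is an established human embryonic kidney line that takes up plasmids readily. The comparison uses 6 of the 12 RNA-seq libraries of the study, 3 per plasmid, chosen by their labelled plasmid and serum state, and all 41878 gene rows of the deposited count table. All cells were transfected with 1 µg of plasmid using Effectene. Before RNA extraction they were kept without serum (0%) for 4 h, a treatment meant to induce autophagy, and the other 6 libraries (vector fed and TRPML3 fed, 3 each) came from cells left in 10% serum. The labels call the replicates biological and do not say whether each was a separate transfection, so p-values measure the spread between these libraries. Neither the promoter of the plasmid nor the share of cells that took it up is described in the labels.

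TRPML3 is a cation channel of early and late endosomes, lysosomes and autophagosomes, encoded by MCOLN3, and it lets calcium leave these compartments. Its relative TRPML1 (MCOLN1) releases lysosomal calcium, activates calcineurin and so drives the transcription factors TFEB and TFE3 into the nucleus, where they switch on lysosome and autophagy genes. Starvation acts on the same factors by silencing mTORC1 at the lysosome. The comparison therefore asks which transcripts differ when the channel is made in excess in cells that are already starved.

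The 6 starved libraries held 35193148 to 43700547 counts each, and 20970 to 23732 gene rows had at least 1 count. All 8 HEK293T marker genes (among them VIM, KRT8, NEFM and PAX2) had a median of at least 1 CPM (counts scaled to an equal library total) in these libraries, and their summed level was 805 to 951 CPM in vector and 629 to 993 CPM in TRPML3 libraries. CPM values here are scaled by TMM, a normalization that sets the bulk of genes equal between libraries. Of the markers of other cell types, the 4 leukocyte genes summed to 0.743 to 1.52 CPM in vector and 1.23 to 1.34 CPM in TRPML3 libraries, and the 4 fibroblast genes to 21.3 to 40.9 and 31.9 to 36.8 CPM. The 4 endothelial genes stayed under 1.06 CPM in sum. The 4 glia genes summed to 3.26 to 4.60 CPM in vector and 2.26 to 3.44 CPM in TRPML3 libraries. The 4 hepatocyte genes summed to at most 2.21 CPM and the 4 keratinocyte genes to at most 0.180 CPM. A median of at least 1 CPM was found for 1 leukocyte, 3 fibroblast and 2 glia genes, and for no endothelial, hepatocyte or keratinocyte gene. Replicate 3 of each plasmid stood apart. Its quality weight in a weighted fit was 0.557 for vector and 0.538 for TRPML3, against 1.09 to 1.67 for the other 4 starved libraries, and mitochondrial transcripts took 4.92% and 5.69% of its counts against 1.05% to 3.08%. Libraries of the same plasmid were by this measure no more alike than libraries of different plasmids: the median Spearman correlation over tested genes was 0.9387 in 6 pairs within a plasmid and 0.9491 in 9 pairs between plasmids.

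MCOLN3, the transfected gene, was examined first. It lies on the minus strand of chromosome 1 at chr1:85018082-85048499 (GRCh38, GENCODE 29) and overlaps WDR63 on the opposite strand. The vector starved libraries 1, 2 and 3 had 9.31, 9.63 and 14.4 CPM. The TRPML3 starved libraries had 41362, 58223 and 16896 CPM, so the lowest of them was 1173-fold above the highest vector library. Counts cannot separate plasmid from chromosomal transcripts. In RNA from bulk cultures, more transfected cells and more transcript per cell cannot be told apart. The channel's mRNA took 3.95% of all counts in TRPML3 library 1 (Wilson 95% interval 3.94 to 3.96), 5.52% in library 2 (5.52 to 5.53) and 1.57% in library 3 (1.56 to 1.57), intervals that cover counting error only. The dose of transcript thus ranged 3.446-fold among the 3 TRPML3 libraries, with replicate 3 lowest.

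The log2 fold change of MCOLN3 was 11.77 ± 1.10 (SE, n = 3 per group). It rose past the threshold of edgeR's quasi-likelihood test, with an adjusted p of 0.00914 over 18030 genes. SE here and below is the size of the log2 fold change divided by the square root of that test's F statistic. An exact two-sided permutation test over the 6 libraries gave p = 0.1, the smallest that 3 against 3 libraries allow. With the replicate number as a block the log2 fold change was 11.97 and edgeR's adjusted p was 0.0775. Without vector starved replicate 1, 2 or 3 the adjusted p was 0.136, 0.170 or 0.149, at log2 fold changes of 11.66 to 12.00.

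**Figure D1:**
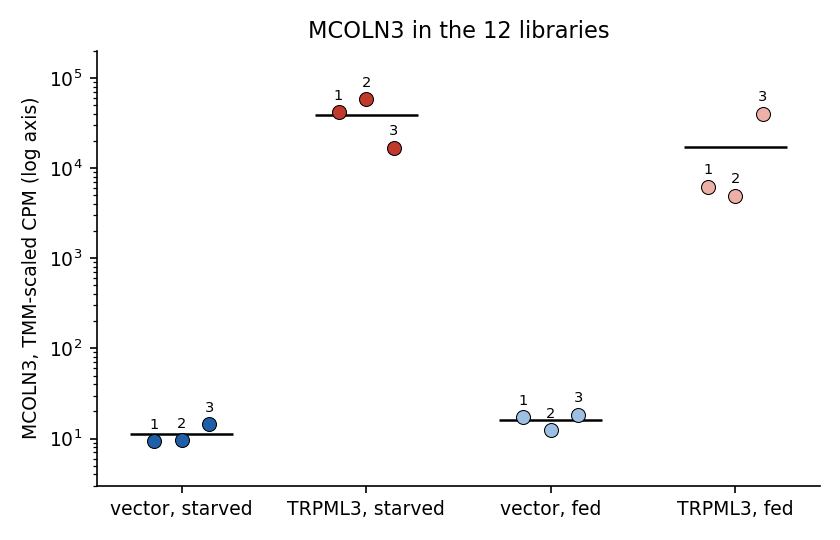
MCOLN3 in each of the 12 libraries, as TMM-scaled CPM on a log axis; points are libraries with their replicate number and bars are group means. The 3 TRPML3 starved libraries lie at 16896 to 58223 CPM and the 3 vector starved libraries at 9.31 to 14.4 CPM.

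The number of genes called depended on the test. edgeR called 1 of 18030 genes (0.00555%), MCOLN3 itself, while 396 genes (2.2%) had an unadjusted p under 0.05, 196 of them higher (1.09%) and 200 lower (1.11%) with TRPML3. In 1187 genes (6.58%) the 3 TRPML3 libraries lay entirely above (545, 3.02%) or entirely below (642, 3.56%) the 3 vector libraries. The median gene had a log2 fold change of -0.01 with a standard error of 0.45. The fit had a common biological coefficient of variation of 0.527. It held no replicate block, and with the replicate number as a block edgeR called 0 of 18030 genes. Each replicate number was also dropped from every group, a setting added once the data had been seen. Without replicate 3 edgeR again called MCOLN3 alone, without replicate 2 it called 0 genes, and without replicate 1 it called 1, which was FRRS1 and not MCOLN3. limma-voom with quality weights gave 0 of 18030 (0%), with 813 (4.51%) at an unadjusted p under 0.05, and edgeR on the 6 starved libraries alone gave 3 of 16723 (0.0179%), MCOLN3, INTS1 and ARID3A. The DESeq2 Wald test called 43 of 17958 (0.239%), which are described further on. The genes described next are those with the smallest unadjusted p among the 228 genes (1.26%) with no overlap between plasmids, p under 0.05 and, in either starved group, a mean of 1 CPM or more. Of these 228, 117 were higher (0.649%) and 111 lower (0.616%). Apart from MCOLN3 none of them is called by edgeR over the 12 libraries, and their values are given as measured.

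Among the 11 genes highest on that ranking with more transcript in TRPML3 cells were 2 collagen genes. COL27A1, a fibrillar collagen (ENSG00000196739, chr9:114155560-114312511), had 4.55, 3.53 and 1.98 CPM in vector and 22.7, 18.8 and 25.3 CPM in TRPML3 starved libraries 1, 2 and 3. The groups were well apart, at a log2 fold change of 2.73 ± 0.48 (edgeR unadjusted p = 0.000169, adjusted p = 0.610). In fed cells COL27A1 had 25.7, 19.3 and 24.9 CPM with vector and 6.86, 21.5 and 25.96 CPM with TRPML3, so the 3 vector starved libraries were lower than all 9 others. COL25A1, a membrane-bound collagen (ENSG00000188517, chr4:108808725-109302752), had 4.33, 5.88 and 7.18 CPM in vector and 26.2, 12.7 and 17.5 CPM in TRPML3 starved libraries (log2 fold change 1.70 ± 0.35). Here the TRPML3 starved libraries were the ones outside the fed range, which was 3.23 to 7.09 CPM. COL25A1 was the only gene of the 11 of which this was true.

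Of the others, 3 encode mitochondrial or DNA repair proteins. EXOG, a mitochondrial nuclease, had 2.11, 6.95 and 3.98 CPM in vector and 19.9, 19.4 and 16.8 CPM in TRPML3 starved libraries (log2 fold change 2.10 ± 0.47). MRE11, the nuclease of the complex that senses DNA double-strand breaks, had 8.28, 14.5 and 22.04 CPM against 76.7, 75.7 and 45.8 CPM (2.14 ± 0.49). IMMT, the core subunit of the complex that shapes mitochondrial cristae, had 2.55, 2.03 and 4.48 CPM against 99.0, 5.27 and 143 CPM (4.77 ± 1.22). TRPML3 library 2 of IMMT was thus close to the vector libraries and far from the other TRPML3 libraries. IMMT also varied within the fed groups, from 7.98 to 141 CPM with vector.

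The other 6 genes had various roles. SYTL4, a Rab27 effector on secretory granules, had 1.15, 1.31 and 0.518 CPM in vector and 6.83, 8.95 and 3.47 CPM in TRPML3 starved libraries (2.69 ± 0.61). SLC23A2, a vitamin C transporter, had 0.122, 0.428 and 0.473 CPM against 10.7, 3.59 and 44.7 CPM (5.84 ± 1.48). CAMSAP1, which binds microtubule minus ends, had 36.5, 18.1 and 11.5 CPM against 55.7, 104 and 68.1 CPM (1.79 ± 0.42). SLC23A2 stood out for its spread among the TRPML3 libraries, and CAMSAP1 for levels that in fed cells lay between 48.3 and 84.7 CPM with either plasmid.

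UXS1, the enzyme that makes UDP-xylose for glycosaminoglycan chains, had 13.4, 20.8 and 15.9 CPM against 43.3, 35.8 and 31.4 CPM (1.14 ± 0.27). ANP32B, a histone chaperone, was the most abundant of the 11, at 386, 367 and 463 CPM in vector and 579, 756 and 609 CPM in TRPML3 starved libraries (0.68 ± 0.17). UBE2F-SCLY is annotated as a readthrough of the neighbours UBE2F and SCLY, shares its sequence with them, and had 0, 0 and 0.0900 CPM against 8.47, 0.449 and 1.65 CPM. Its fitted log2 fold change of 6.65 depends on the prior count, since 2 vector libraries held no count, where 3 counts would have been up to 0.0820 CPM before TMM scaling.

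These genes were picked for starved groups without overlap and a small p, which makes a starved group outside the fed range likelier. The share of all tested genes with this pattern was not counted, so the counts below describe the picked genes only. The vector starved libraries were the extreme ones for most of the 11. In 7 of the 11 (COL27A1, EXOG, SYTL4, UXS1, CAMSAP1, ANP32B and UBE2F-SCLY) all 3 vector starved libraries lay below all 6 fed libraries. For UBE2F-SCLY this rests on values near the counting floor. Vector starved replicate 3 had 4 counts (0.0900 CPM) and TRPML3 fed replicate 3 had 3 counts (0.0978 CPM). In 4 of the 11 all 3 TRPML3 starved libraries lay inside the range of the fed libraries. In fed cells, 5 of the 11 had a higher fitted level with TRPML3, and none separated TRPML3 from vector without overlap. Leaving UBE2F-SCLY aside, the largest and smallest members of the group, SLC23A2 and ANP32B, spanned log2 fold changes from 5.84 down to 0.68.

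**Figure D2:**
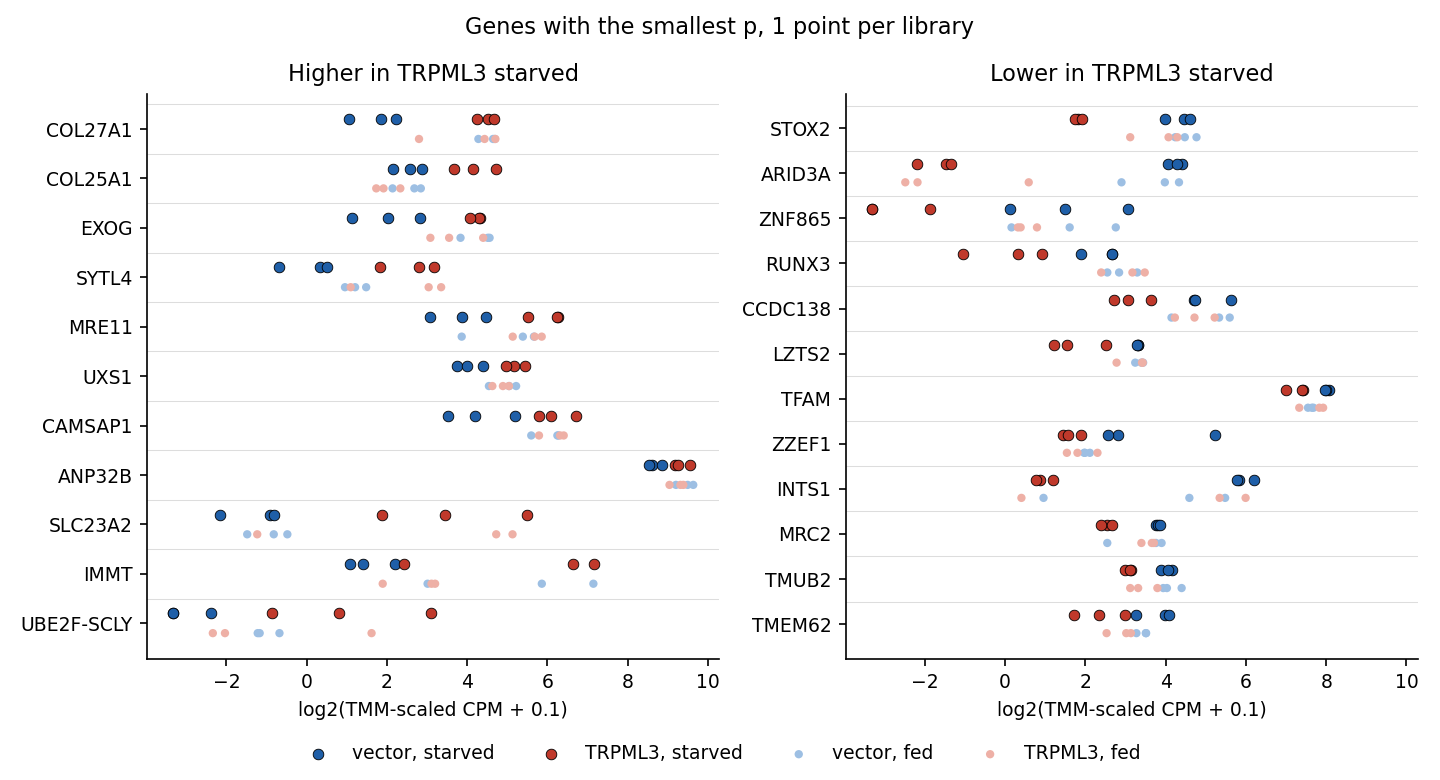
The 23 genes with the smallest p other than MCOLN3, as log2(TMM-scaled CPM + 0.1), with large points for the starved libraries and small pale points for the fed libraries. Left, 11 genes higher in TRPML3 starved libraries. The vector starved libraries lie below all fed libraries in 7 of them, including UBE2F-SCLY near the counting floor. Right, 12 genes lower, where the TRPML3 starved libraries lie below all fed libraries in 5.

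Of the 12 genes with less transcript in TRPML3 starved cells, 3 encode DNA-binding regulators with well-separated libraries. STOX2, a winged-helix protein (ENSG00000173320, chr4:183797692-184023526), came nearest to a call after MCOLN3. It had 15.8, 21.95 and 24.2 CPM in vector and 3.45, 3.23 and 3.65 CPM in TRPML3 starved libraries, a log2 fold change of -2.58 ± 0.34 with an edgeR adjusted p of 0.120. The 3 TRPML3 libraries were nearly equal and lay below every other library, since the fed libraries ran from 8.57 to 27.1 CPM. Without TRPML3 fed replicate 2, a library outside the contrast that enters the shared dispersion, the edgeR adjusted p of STOX2 was 0.0274. STOX2 did not pass in the other left-out fits of 15 in all, nor with the replicate block (0.445).

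ARID3A, an AT-rich DNA-binding factor of the E2F pathway and of B cells (ENSG00000116017, chr19:925781-975934), was almost absent from TRPML3 cells. It had 21.0, 16.6 and 19.3 CPM in vector and 0.263, 0.120 and 0.289 CPM in TRPML3 starved libraries, a log2 fold change of -6.38 ± 1.05 (edgeR adjusted p = 0.544). The fed libraries had 7.36, 20.0 and 15.7 CPM with vector and 0.120, 0.0781 and 1.40 CPM with TRPML3, so ARID3A was lower in 6 of 6 TRPML3 libraries. With the 6 starved libraries fitted alone its edgeR adjusted p was 0.0249, and without TRPML3 fed replicate 3 it was 0.00326. It was 0.752 with the replicate block, and of the 15 fits with libraries left out only the one named passed. RUNX3, a Runt-domain transcription factor (ENSG00000020633), had 6.22, 6.18 and 3.58 CPM in vector and 0.380, 1.14 and 1.79 CPM in TRPML3 starved libraries (-2.27 ± 0.53). Its fed libraries were all at 5.15 CPM or more with either plasmid.

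The zinc finger gene ZNF865 had 8.28, 2.70 and 0.990 CPM in vector and 0, 0 and 0.174 CPM in TRPML3 starved libraries, where 3 counts correspond to up to 0.0852 CPM before TMM scaling. INTS1, the largest subunit of the Integrator complex that processes small nuclear RNAs and ends transcription early, had 57.1, 54.8 and 73.5 CPM against 1.72, 1.62 and 2.20 CPM (-5.06 ± 1.31). The starved groups of INTS1 were tight and far apart. Its fed libraries held both kinds of level, at 1.84, 44.6 and 23.99 CPM with vector and 40.5, 1.22 and 63.5 CPM with TRPML3. Fitted on the 6 starved libraries alone, INTS1 had an edgeR adjusted p of 0.0156, whereas over all 12 libraries it was 1.

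TFAM, which packages and transcribes mitochondrial DNA, was the most abundant of the 12. It had 269, 255 and 249 CPM in vector and 129, 173 and 169 CPM in TRPML3 starved libraries (-0.72 ± 0.18), and its vector starved libraries lay above all 6 fed libraries (161 to 243 CPM). The 15 transcripts of the mitochondrial genome had no member at an unadjusted p under 0.05. Their median difference from the vector mean was 0.30, -1.20 and 0.91 on the log2 scale in vector starved libraries 1, 2 and 3, and 0.27, -1.26 and 1.19 in TRPML3 starved libraries, so it was lowest in replicate 2 and highest in replicate 3 of both plasmids.

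LZTS2, a leucine zipper protein that holds beta-catenin out of the nucleus, had 9.87, 9.81 and 9.59 CPM in vector and 2.22, 2.79 and 5.62 CPM in TRPML3 starved libraries (-1.46 ± 0.35). MRC2, an endocytic receptor for collagen, had 13.5, 13.8 and 14.4 CPM against 5.72, 5.15 and 6.25 CPM (-1.29 ± 0.33). The vector libraries of both genes were nearly equal, and for both the fed TRPML3 libraries (6.75 to 10.7 CPM for LZTS2, 10.4 to 12.9 CPM for MRC2) lay above the starved TRPML3 libraries.

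CCDC138 had 26.2, 49.7 and 26.2 CPM in vector and 8.18, 12.2 and 6.43 CPM in TRPML3 starved libraries (-1.93 ± 0.46). TMUB2 had 14.7, 17.8 and 16.7 CPM against 7.77, 8.65 and 8.54 CPM (-0.98 ± 0.25), and TMEM62 had 15.6, 16.9 and 9.54 CPM against 7.83, 4.97 and 3.16 CPM (-1.40 ± 0.37). In ZZEF1 the difference rested on vector starved replicate 2. Its libraries had 6.91, 37.3 and 5.79 CPM against 2.60, 3.59 and 2.84 CPM, and the log2 fold change of -2.47 became as small as -1.08 with 1 library left out.

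All 3 TRPML3 starved libraries lay below all 6 fed libraries in 5 of the 12 lower genes (STOX2, ZNF865, RUNX3, CCDC138 and LZTS2). The vector starved libraries lay above them all in 2 (TFAM and ZZEF1). Both counts describe genes picked for starved groups without overlap, and the share over all tested genes was not counted. For fed cells, the share of all tested genes that were lower without overlap was not counted either. There 8 of the 12 had a lower fitted level with TRPML3, and 3 did so without overlap. ARID3A was one of them, with TMUB2 at 9.84, 8.57 and 13.8 CPM against 15.2, 21.0 and 16.2 CPM with vector, and TMEM62 at 5.66, 7.996 and 8.67 CPM against 11.3, 9.55 and 11.2 CPM. Of the 23 genes, 6 overlap another tested gene in GENCODE 29 (EXOG, MRE11, UBE2F-SCLY, CCDC138, LZTS2 and TMEM62), and the use of strand in counting is not given in the sources used here, so their counts may include reads of the neighbour.

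Whether the plasmid effect differed between serum states was tested as an interaction over all 12 libraries. edgeR called 0 of 18030 genes (0%) and found 374 (2.07%) at an unadjusted p under 0.05, and the DESeq2 Wald test called 27 of 17958 (0.15%). Among the 23 ranked genes, 9 of 11 higher and 9 of 12 lower genes had an unadjusted interaction p under 0.05. These genes were ranked on the starved libraries that also enter the interaction, so that count is a description. The fed effects lay near 0 for most of them. COL27A1 had a fed log2 fold change of -0.36 ± 0.45 beside 2.73 in starved cells, RUNX3 0.16 ± 0.50 beside -2.27, and TFAM 0.09 ± 0.18 beside -0.72. SLC23A2 (5.504 ± 1.46 fed) and ARID3A (-4.77 ± 0.96 fed) had fitted effects of like size in both states. The fed groups of SLC23A2 overlapped, at 26.3, 34.9 and 0.326 CPM with TRPML3 against 0.467, 0.617 and 0.258 CPM with vector. IMMT had opposite signs (-3.29 ± 1.13 fed, interaction at DESeq2 adjusted p = 3.63e-05).

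**Figure D3:**
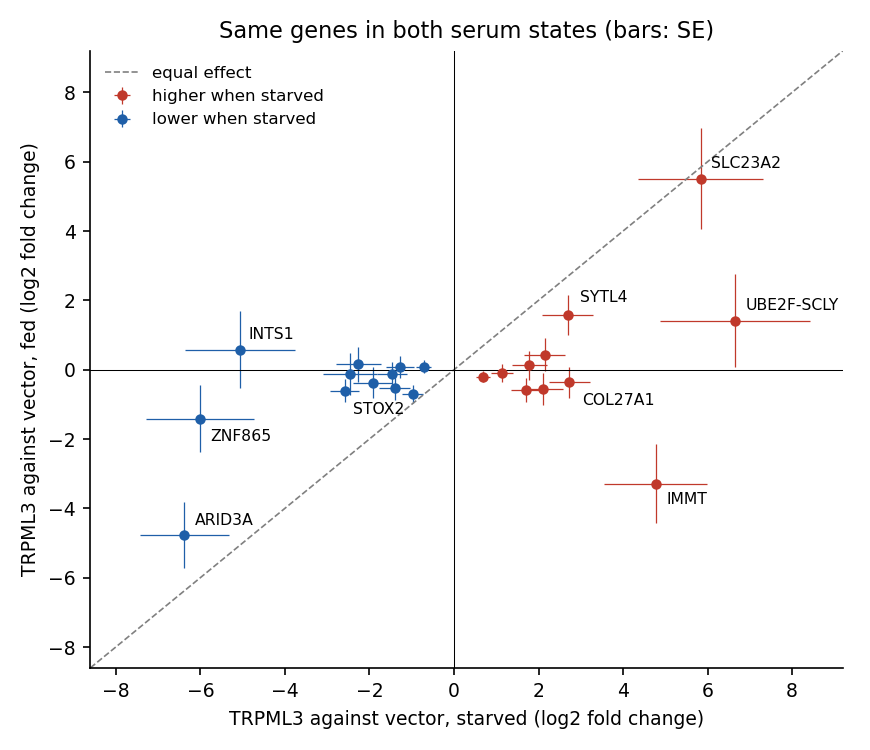
Log2 fold change of TRPML3 against vector in starved cells (x axis) and in fed cells (y axis) for the 23 ranked genes; points are edgeR estimates, bars are standard errors, and the dashed line marks equal effects. Most points lie near 0 on the fed axis, while SLC23A2 (5.84 and 5.504) and ARID3A (-6.38 and -4.77) lie near the line.

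The DESeq2 Wald test called more genes, 43 of 17958 genes (0.239%) in starved cells, 20 higher (0.111%) and 23 lower (0.128%). Of the 43, 26 (13 higher, 13 lower) also had no overlap between plasmids and at least 1 CPM on average in a starved group. In 12 of the 43 all starved libraries of 1 plasmid had 0 counts, though fed libraries of that plasmid could hold counts. STOX2 (DESeq2 adjusted p = 2.88e-10), ARID3A (8.29e-10) and COL27A1 (1.23e-05) followed MCOLN3 among those with no overlap.

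Many of the called genes also varied between libraries that were treated alike. A range of at least 10-fold within 1 of the fed groups, counted after adding 0.1 CPM, was found in 20 of the 43 called genes (46.5%), in 9 of the 26 with no overlap (34.6%) and in 1170 of the 18030 tested genes (6.49%). Among the 228 genes without overlap and with an edgeR p under 0.05 it was 8.77%. SLC23A2, IMMT, INTS1 and UBE2F-SCLY had such ranges, of 82.2-fold, 17.5-fold, 48.0-fold and 15.5-fold. CIR1, JAK2, KDM6B, ERO1A and GALNT6 had them too, and 5 of the 43 carry readthrough names: UBE2F-SCLY, COMMD3-BMI1, MSANTD3-TMEFF1, HSPE1-MOB4 and SENP3-EIF4A1.

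KDM6B, which removes the repressive H3K27 methyl mark, had 32.7, 18.1 and 0.788 CPM in vector and 0.0292, 0.180 and 0.174 CPM in TRPML3 starved libraries. ERO1A, the oxidase that drives disulphide bond formation in the endoplasmic reticulum, had 96.1, 1.68 and 107 CPM against 0.818, 1.08 and 1.27 CPM, and 187, 235 and 4.70 CPM in TRPML3 fed libraries. Both genes were on in some vector libraries and near off in another. ZBTB7A, a transcriptional repressor, had 0.710, 36.0 and 0.495 CPM against 0.350, 0.299 and 0.434 CPM, so its difference came from vector replicate 2. All 6 fed libraries of ZBTB7A were at 4.79 CPM or more.

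CIR1, a corepressor of Notch target genes, had 0.637, 0.615 and 1.06 CPM in vector and 54.8, 126 and 1.33 CPM in TRPML3 starved libraries. JAK2, the kinase of many cytokine receptors, had 0.0490, 0.134 and 0.135 CPM against 5.61, 4.19 and 0.174 CPM. In both genes TRPML3 starved replicate 3, the TRPML3 starved library with the least MCOLN3, was near the vector level. In fed cells CIR1 had 141, 66.9 and 27.0 CPM with vector and 59.2, 1.07 and 0.783 CPM with TRPML3. JAK2 had 21.0, 0.251 and 15.6 CPM there with vector and 13.8, 6.85 and 1.57 CPM with TRPML3. Of the TRPML3 fed libraries, replicate 3 had the most MCOLN3. The part of the MCOLN3 level in these values was not tested. GALNT6, which starts mucin-type sugar chains, had 9.70, 0.669 and 0.878 CPM against 0.234, 0.0599 and 0.232 CPM, with vector replicate 1 well above the others.

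**Figure D4:**
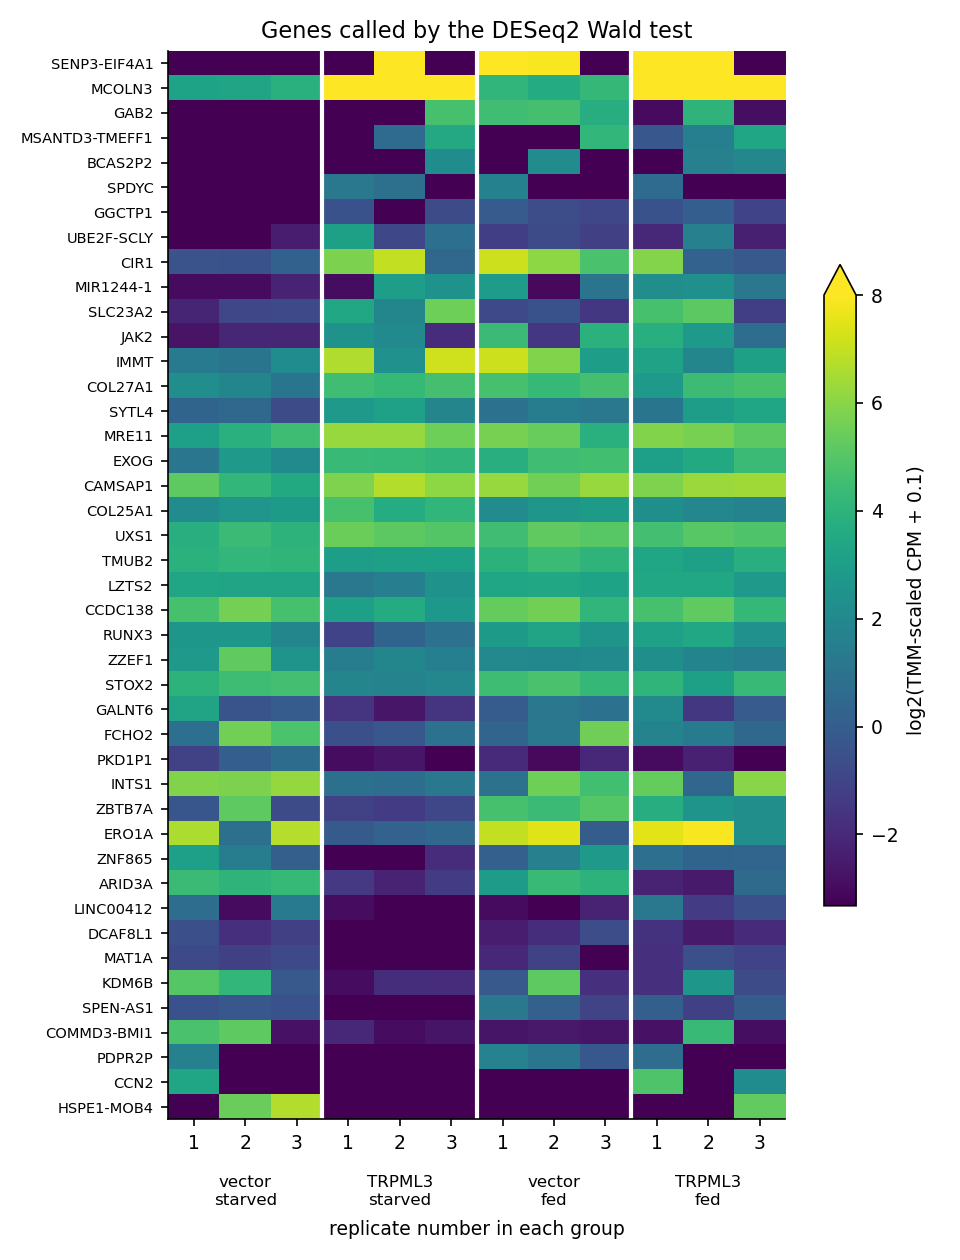
The 43 genes called by the DESeq2 Wald test in starved cells, ordered by fitted log2 fold change, in each of the 12 libraries; colour is log2(TMM-scaled CPM + 0.1) and is capped at 8. Rows such as ERO1A and INTS1 switch between high and low levels within the fed groups, while STOX2 and COL27A1 differ mainly between the starved groups.

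The pathways that TRPML channels and starvation are known to act on were then described from 22 gene lists. They held 638 tested members other than MCOLN3, each counted once, of which 11 had an unadjusted edgeR p under 0.05 (1.72%, beside 2.2% of all genes), 9 higher and 2 lower. In 40 members (6.27%, beside 6.58%) the libraries of the plasmids did not overlap. No list member other than MCOLN3 passed the adjusted threshold in edgeR. The DESeq2 Wald test called MCOLN3 and CCN2. The shares of the lists were near those of all genes.

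**Figure D5:**
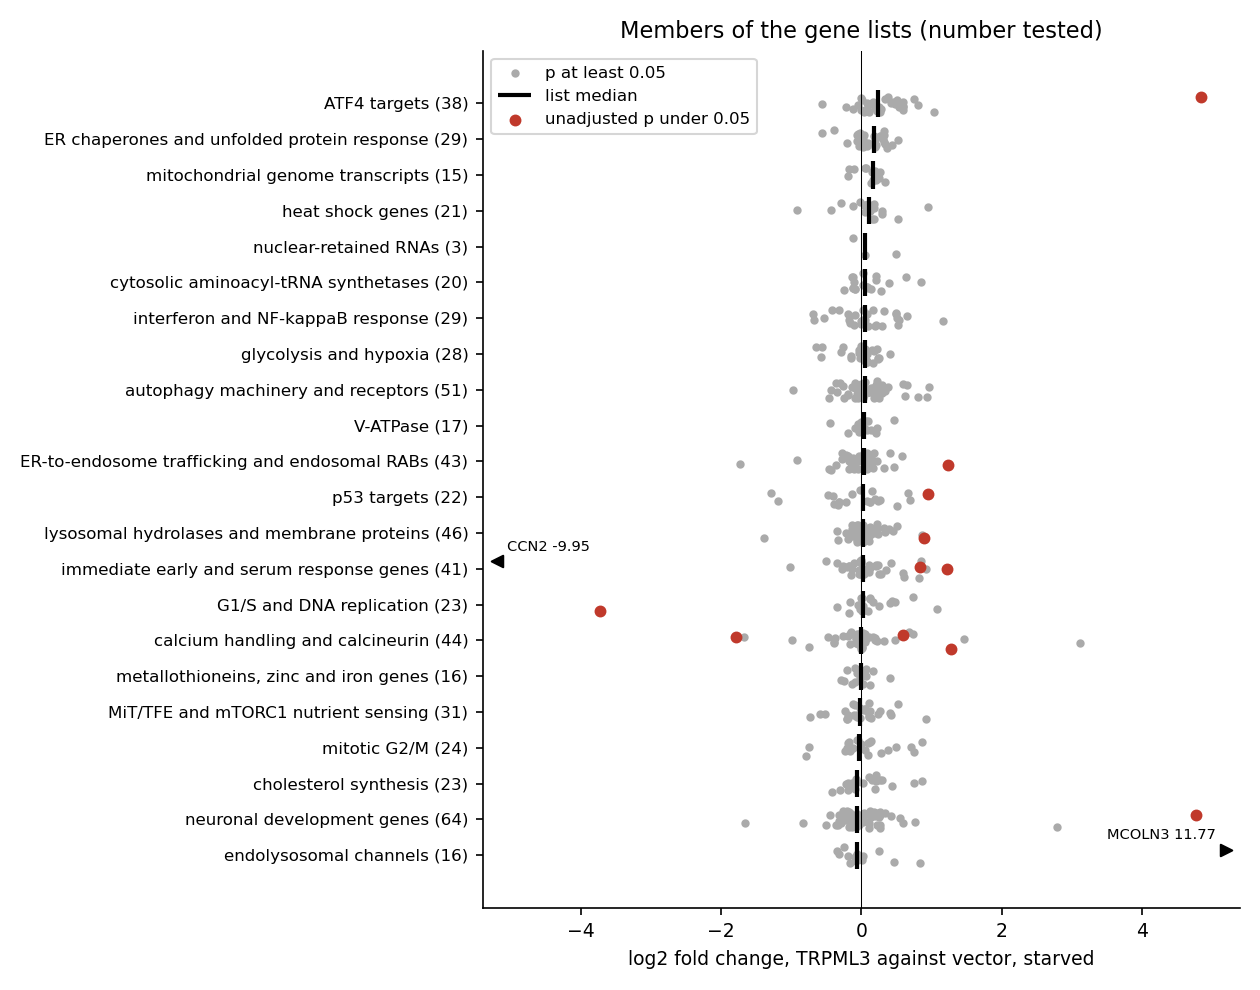
Log2 fold change of every tested member of the 22 lists, TRPML3 against vector in starved cells; grey points are members, red points have an unadjusted p under 0.05, black bars are list medians, and arrowheads mark values beyond the axis. The ATF4 target list lies highest with a median of 0.24, and the medians of the other lists lie between -0.06 and 0.18.

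The other channels of endosomes and lysosomes did not follow MCOLN3. Of 16 tested channel genes, MCOLN3 included, 6 were higher and 10 lower, with a median log2 fold change of -0.06, and no member but MCOLN3 had a p under 0.05. MCOLN1, the gene of TRPML1, had 8.77, 7.33 and 4.57 CPM in vector and 7.36, 5.81 and 5.33 CPM in TRPML3 starved libraries (-0.16 ± 0.32). MCOLN2, the gene of TRPML2, had 17.7, 12.9 and 28.5 CPM against 17.0, 15.5 and 26.9 CPM (0.01 ± 0.39). The values of both groups interleaved for both genes.

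Each list of lysosome formation and autophagy genes held both higher and lower members. Of 31 tested members of the MiT/TFE and mTORC1 list, 15 were higher and 16 lower, with a median log2 fold change of -0.01 and none at p under 0.05. MTOR, the kinase itself and the most highly expressed of them, had 167, 208 and 158 CPM against 197, 153 and 147 CPM (-0.10 ± 0.35). The TFEB and TFE3 transcripts, given for their role and not for their values, had log2 fold changes of -0.06 ± 0.36 and 0.11 ± 0.23. TFEB and TFE3 are controlled mainly by where the protein is in the cell, which counts do not measure.

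Among 46 tested lysosomal hydrolases and membrane proteins, 26 were higher and 20 lower (median 0.03), and only MAN2B1, the lysosomal alpha-mannosidase, had a p under 0.05. It had 3.58, 6.23 and 6.15 CPM in vector and 9.11, 8.68 and 11.9 CPM in TRPML3 starved libraries (0.90 ± 0.35). LAMP1 and LAMP2, the main membrane proteins of lysosomes and named for that role, had log2 fold changes of -0.07 ± 0.26 and 0.03 ± 0.14. The 17 subunits of the V-ATPase, the lysosomal proton pump, split into 10 higher and 7 lower with a median of 0.04. ATP6V1A, the most highly expressed of them, had 140, 294 and 242 CPM against 285, 271 and 80.7 CPM.

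Of 51 tested autophagy genes, 30 were higher and 21 lower, with a median log2 fold change of 0.05 and none at p under 0.05. Their median difference from the vector mean was 0.13, 0.18 and 0.13 in TRPML3 starved libraries 1, 2 and 3. In the vector starved libraries it was 0.02, 0.01 and -0.06. The list median depended on the scaling and was -0.06 with library size only. NCOA4, the receptor that delivers ferritin to autophagosomes, was the most highly expressed of the 51. Its libraries had 374, 337 and 314 CPM in vector and 419, 386 and 535 CPM with TRPML3 (0.39 ± 0.19, unadjusted p = 0.0638), without overlap. MAP1LC3B, which coats the autophagosome membrane, had 250, 220 and 222 CPM against 239, 251 and 251 CPM (0.10 ± 0.23), and SQSTM1, the receptor for ubiquitinated cargo, had 114, 59.3 and 74.8 CPM against 106, 109 and 73.8 CPM (0.22 ± 0.41). Both were named for their use as autophagy markers. Of 43 tested genes of trafficking to and between endosomes, 22 were higher and 21 lower. SNX5, a retromer-linked sorting nexin, had 76.1, 62.4 and 65.9 CPM against 63.4, 286 and 131 CPM (1.23 ± 0.53), with TRPML3 replicate 1 at the vector level.

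Calcium handling genes included both ends of the calcineurin feedback loop. Of 44 tested, 22 were higher and 22 lower, with a median of 0.00. RCAN3, a calcineurin inhibitor, had 30.4, 23.7 and 21.2 CPM in vector and 64.01, 58.997 and 59.98 CPM in TRPML3 starved libraries (1.28 ± 0.48, unadjusted p = 0.0218). Its relative RCAN1, a standard target of calcineurin and NFAT, had 57.6, 61.1 and 45.1 CPM against 93.8, 98.3 and 54.1 CPM (0.59 ± 0.24, edgeR unadjusted p = 0.0308), and TRPML3 replicate 3 lay inside the vector range. PPP3CA, a catalytic subunit of calcineurin, had 33.8, 22.9 and 107 CPM against 7.18, 18.1 and 22.1 CPM (-1.79 ± 0.75, unadjusted p = 0.0363). RCAN3 was at 60.4 CPM in vector fed replicate 3 and at 74.6 CPM in TRPML3 fed replicate 1, so fed libraries of either plasmid reached the level of the TRPML3 starved libraries.

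Immediate early and serum response genes, which serum withdrawal quiets, split into 22 higher and 19 lower of 41 tested. ANKRD1, a target of YAP and a stress-response protein of muscle, had 14.5, 12.9 and 9.05 CPM in vector and 25.3, 30.2 and 29.5 CPM in TRPML3 starved libraries (1.22 ± 0.35, unadjusted p = 0.00575). In fed cells ANKRD1 had 13.7, 14.9 and 5.48 CPM with vector and 16.3, 17.7 and 17.6 CPM with TRPML3, so each of the 6 TRPML3 libraries exceeded each of the 6 vector libraries. SRF, the serum response factor, had 29.9, 40.2 and 78.1 CPM against 101, 87.6 and 75.7 CPM (0.83 ± 0.34). CCN2, a secreted matrix protein and another YAP target, had the lowest fitted value of the list and is named for it. It had 9.87, 0 and 0 CPM in vector and 0 CPM in all 3 TRPML3 starved libraries, so the difference came from vector replicate 1. The DESeq2 Wald test called CCN2 in starved cells (DESeq2 adjusted p = 5.93e-05) and in the interaction (DESeq2 adjusted p = 2.67e-12), and in fed cells it had 0 CPM with vector and 28.9, 0 and 4.47 CPM with TRPML3. FOS and EGR1, named as the best-known members, had log2 fold changes of 0.28 ± 0.61 and 0.06 ± 0.78.

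Stress-response genes held the list with the most one-sided values. ATF4 is the transcription factor of the integrated stress response, and its targets make amino acids, transport them and tune cell death. Of 39 targets listed, 38 passed the filter on low counts, and 32 of these had a positive log2 fold change, beside 49.2% of all tested genes. Their median was 0.24, beside -0.01 for all genes. Over the TRPML3 libraries the median difference from the vector mean was 0.29, 0.29 and 0.10 for replicates 1, 2 and 3. Over the vector libraries it was 0.06, 0.05 and -0.07, so TRPML3 replicate 3 lay close to vector replicates 1 and 2. JDP2, an AP-1 family repressor, was the only member with a p under 0.05. It had 0, 0.401 and 0.113 CPM in vector and 7.10, 6.71 and 1.07 CPM in TRPML3 starved libraries (edgeR unadjusted p = 0.0152), and ranged 47.4-fold within a fed group.

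Besides JDP2, 4 ATF4 targets separated the plasmids without overlap, and they are named because of these values. Over all tested genes, 3.02% were higher with no overlap. DDIT3, the death-promoting factor CHOP, had 32.2, 28.5 and 25.8 CPM in vector and 35.3, 41.4 and 44.3 CPM with TRPML3 (0.49 ± 0.26). SESN2, an inhibitor of mTORC1, had 26.7, 25.4 and 25.98 CPM against 38.02, 36.8 and 37.5 CPM. PSAT1 of serine synthesis had 445, 415 and 453 CPM against 532, 485 and 463 CPM, and CEBPB, a dimer partner of ATF4, had 8.52, 6.12 and 7.25 CPM against 10.1, 10.2 and 9.06 CPM. These differences are small, and none had an unadjusted p under 0.05. In fed cells 28 of the 38 were higher with TRPML3, with a median of 0.18.

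The composite element that ATF4 binds with C/EBP partners reads TGATGNAA, where N is any base. It was searched on both strands in the RefSeq promoter windows (GRCh38.p14, 250 bases before to 50 after the start). It occurs in 1270 of 35116 promoters (3.62%) and in 10 of the 52 promoters found for 32 of the 38 targets (19.23%), each from a different gene. The list was made of genes taken as ATF4 targets, so its higher share does not depend on the counts and has no bearing on TRPML3. The 3 stretches shown are on the plus strand, so that the element can be read beside the values. They come from the matching genes with the smallest p whose element lies before the start. Genes on a chromosome that was set aside were not considered in that choice. The capitals mark the element.
JDP2, chr14:75427990-75428021: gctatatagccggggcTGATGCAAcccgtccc
ATF3, chr1:212565200-212565239: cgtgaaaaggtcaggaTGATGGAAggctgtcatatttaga
CEBPG, chr19:33374055-33374094: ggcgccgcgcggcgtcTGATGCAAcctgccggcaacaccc
The element of JDP2 starts 16 bases before the transcript start, that of CEBPG 42 and that of ATF3 191 bases before it. ATF3, a stress-induced repressor, had 183, 215 and 137 CPM in vector and 193, 312 and 299 CPM in TRPML3 starved libraries (0.59 ± 0.58), and CEBPG, a dimer partner of ATF4, a log2 fold change of 0.53 (edgeR unadjusted p = 0.526). A match describes the letters of the window and is not evidence of binding.

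Chaperones of the endoplasmic reticulum were higher in 20 of 29, with a median of 0.18 and none at p under 0.05. Leaving out 1 library moved that median between -0.04 and 0.22. HSP90B1, the most highly expressed, had 3274, 3278 and 2899 CPM in vector and 2412, 3925 and 3679.7 CPM in TRPML3 starved libraries. HSPA5, named as the chaperone that controls the unfolded protein response, had a log2 fold change of 0.28 ± 0.49. Of 21 heat shock genes 16 were higher (median 0.11), and HSP90AA1 had 3250.2, 3121 and 2498 CPM against 4155, 5450.1 and 3094 CPM, overlapping at TRPML3 replicate 3. The 20 tested cytosolic aminoacyl-tRNA synthetases had a median of 0.06, with 12 higher.

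In the remaining lists few members stood out. PMAIP1, the p53 target NOXA, had 180, 79.6 and 165 CPM in vector and 271, 314 and 231 CPM in TRPML3 starved libraries (0.94 ± 0.34), while 11 of the 22 p53 targets were higher and 11 lower. UHRF1, which guides maintenance DNA methylation, had 86.5, 135 and 3.98 CPM against 6.80, 5.15 and 5.04 CPM (-3.73 ± 1.28). Its level was low in replicate 3 of all 4 groups (3.98 to 5.57 CPM) and in all TRPML3 starved libraries, and 8 of 23 genes of DNA replication were lower. ELAVL2, a neuronal RNA-binding protein, had 0.122, 0 and 0.180 CPM against 3.88, 4.85 and 0 CPM, and in fed cells 0.0275, 0.137 and 0 CPM with vector against 8.38, 8.75 and 0.163 CPM. TRPML3 replicate 3 was thus without the transcript or near its floor in both serum states. Of the 64 tested neuronal genes, 28 were higher and 36 lower.

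Genes of sterol synthesis, interferon response, metal handling, mitosis and glycolysis had no member at p under 0.05. SC5D of cholesterol synthesis had 486, 507 and 430 CPM in vector and 510, 466 and 465 CPM with TRPML3. FTH1, the heavy chain of ferritin, had 444, 421 and 452 CPM against 409, 475 and 453 CPM (0.02 ± 0.11), CENPF of mitosis had a log2 fold change of -0.06 ± 0.14 and LDHB of glycolysis 0.08 ± 0.11. None of these 3 differed between plasmids beyond the spread of its libraries. MT-RNR2, the large mitochondrial ribosomal RNA, had 6870.5, 3514 and 12999.7 CPM against 6029, 2734 and 18556 CPM, lowest in replicate 2 and highest in replicate 3 of both plasmids. MALAT1, a nuclear RNA, had 418, 1198 and 1591 CPM against 981, 1466 and 2085 CPM and overlapped between plasmids.

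The last 3 genes separate the plasmids in fed cells, where edgeR called 2 genes (0.0111%), MCOLN3 and RSL1D1. RSL1D1, a nucleolar protein, had 278, 322 and 423 CPM in vector and 655, 532 and 343 CPM in TRPML3 starved libraries (0.58 ± 0.23). NCKAP1, a subunit of the actin-regulating WAVE complex, had 367, 282 and 372 CPM against 285, 364 and 457 CPM (0.12 ± 0.18). CBX6, a Polycomb protein, had 45.6, 39.6 and 50.3 CPM against 56.3, 84.2 and 86.4 CPM in starved cells, whereas in fed cells its TRPML3 libraries were the lower ones (16.2, 15.003 and 29.5 CPM against 60.8, 52.4 and 86.9 CPM).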

How the data were processed

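Polyadenylated RNA of 12 HEK293T libraries was sequenced from 4 groups of 3, and groups and replicate numbers come from the sample titles. The authors deposited raw counts per gene for 41878 rows and a normalized signal for 23252 rows, which equals the deposited raw count divided by 1 size factor per library. Per the submitters' processing notes, FastQC, fastp, HISAT2, StringTie and DESeq2 and the build GRCh38 were used. Their settings, the annotation and the use of strand are not given in the sources used here.

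The raw counts were tested with edgeR 4.0.16 in R 4.3.3: TMM, filterByExpr, robust quasi-likelihood fitting of the 12 libraries, a coefficient for each group (8 residual degrees of freedom) and Benjamini-Hochberg adjustment over 18030 genes at 0.05. Levels are TMM-scaled CPM. Alternatives were DESeq2 1.42.0, limma 3.58.1, other filters and scalings, a replicate block and left-out libraries. The scripts were run on simulated data with a biological coefficient of variation below the 0.527 fitted here. That run does not measure how they perform at this spread.

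MCOLN3 was named first, then called genes, then the 12 higher and 12 lower genes with the smallest p among those with at least 1 CPM and no overlap, then DESeq2 calls meeting these conditions (at most 10 per direction), then per list up to 3 members per direction at p under 0.05 or, failing that, the member with the highest level. The gene this rule names for 1 list is not reported here. The comparison, the 22 lists and the rule were chosen with earlier results of these data known, so they give no independent support. Deviations from group means correlated between same-numbered starved libraries (r = 0.118, 0.106 and 0.323 for numbers 1, 2 and 3), which meets the bar set for pairing. The main fit has no block, so its SEs, p-values and counts leave such a pairing out. The blocked fit is given where it changes a call. With the block edgeR called 0 genes in starved cells, and MCOLN3 had an edgeR adjusted p of 0.0775. Of the TRPML3 libraries, 2 of 3 correlated best with their own number. Total counts of 35193148 to 43700547 put 3 counts at no more than 0.0852 CPM in starved libraries. Coordinates come from GENCODE 29 and promoter sequences from RefSeq (GRCh38.p14).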

Additional observations from a re-analysis of the deposited data

How the results depend on the processing

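Genes called in starved cells numbered 1 by edgeR, 43 by the DESeq2 Wald test, 0 with the replicate block, 0 by limma-voom with quality weights (813 at an unadjusted p under 0.05) and 3 with the 6 starved libraries alone (MCOLN3, INTS1 and ARID3A). With 1 library or 1 replicate number left out the count ranged from 0 to 5. It was 1 without replicate 1 throughout, a call of FRRS1 and not of MCOLN3. It was 5 without TRPML3 starved replicate 1 (ZNF670, PANX1, MCOLN3, FRRS1 and CILP2), 2 without TRPML3 fed replicate 2, TRPML3 fed replicate 3 or TRPML3 starved replicate 2, and 0 without any of the 3 vector starved libraries or without replicate 2 throughout. The interaction had 0 genes, 27 by DESeq2 and 0 to 3 with libraries left out. For MCOLN3 the log2 fold change stayed between 11.25 and 12.36 in 15 such fits and was past the threshold in 10 of them, with an adjusted p of up to 0.435 without replicate 1 throughout. It was 11.97 with the replicate block (adjusted p = 0.0775) and 12.02 with quality weights (0.0805). The cause of these losses was not tested, beyond the fewer libraries of the left-out fits. The block changed no other call. NCKAP1 alone of the named genes tried changed sign, at -0.0029, -0.078 and -0.0025 without vector starved replicate 2, TRPML3 starved replicate 3 and replicate 2 throughout. Scaling by library size only moved the median of all genes to -0.11 and changed the sign of 12 of the 22 list medians, while the median of the ATF4 targets lay between 0.14 and 0.32 in all fits. With 3 libraries a group and a median standard error of 0.45, differences of small size were not detectable, and large ones could be missed too. In the main fit ARID3A, at a log2 fold change of -6.38, and COL27A1, at 2.73, had no overlap between plasmids and were not called. The lack of calls in the lists is therefore weak evidence of no difference.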
